A study of Arabidopsis thaliana with 6 samples.

Results

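The genes described here are 4 genes of protein folding and protein import in the endoplasmic reticulum (ER), out of 22746 probe sets tested on the array. They are the ER chaperone BIP3 (AT1G09080), the co-chaperone gene ATERDJ3B (AT3G62600), a calnexin gene (AT5G07340) and a gene for the alpha subunit of the SEC61 channel (AT2G34250), each read by 1 probe set. They were taken by name, with earlier results of these data known and with no minimum on their signal. The platform annotation names 3 of the 4. It holds no entry for the probe set taken here as BIP3, whose assignment to BIP3 comes from the definition of this gene group alone and was not checked against probe sequences.

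The samples are 3 arrays of sni1 and 3 arrays of wild-type Arabidopsis thaliana. Both genotypes are in the Col-0 accession, and the labels describe sni1 as carrying a radiation-induced mutation in At4g18460. Seeds of both were held at 4 °C for 3 days, after which the plants grew in commercial soil at 22 °C in a growth room and were taken whole at growth stage 3.90. SNI1 restrains systemic acquired resistance, in which a local infection primes the whole plant for defence, and the series sets the transcript profiles of mutant and wild type side by side. No label says whether the arrays of a genotype came from separate plants or sowings, and the p-values below then rest on a spread that may be technical only.

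Proteins bound for secretion enter the ER through the SEC61 channel. In the lumen they meet BiP, an Hsp70 whose ATPase cycle is driven by J-domain co-chaperones such as ERdj3B, while calnexin and calreticulin hold glycoproteins that carry a glucose-trimmed sugar chain. When unfolded proteins build up, the membrane sensor IRE1 splices the BZIP60 transcript, and the resulting transcription factor, with BZIP28, turns on chaperone genes in what is called the unfolded protein response. BIP3 is the Arabidopsis BiP gene known for low expression in unstressed tissue and strong induction under ER stress. Secreted defence proteins pass along this route, and genes of the secretory pathway are known targets of the defence regulator NPR1.

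All values are MAS5 signals, in which 1 number per probe set and array summarises its perfect-match and mismatch probes on a linear scale. Array medians lay between 36.7 and 40.2 in sni1 and between 34.6 and 40.8 in wild type. The gene that the labels name, AT4G18460, had signals of 44.3, 32.5 and 28.2 in sni1 (replicates 1 to 3) and 41.0, 40.04 and 37.2 in wild type, so that the genotypes overlapped (log2 fold change -0.18 ± 0.23 SE, limma adjusted p = 0.961). SNI1 itself is paired with no probe set in the annotation and was not analysed here. Of the leaf markers 4 of 8 were measured, with a summed signal of 12814 to 16262 in sni1 and 15171 to 21371 in wild type. Between arrays of the same replicate number, the leaf sum was lower in sni1 all 3 times. Of all single probe sets, 20.7% were lower in all 3 pairs. The 4 leaf markers had negative log2 fold changes, and 0 of them passed in either limma fit. When the replicate number entered limma as a block, 3 of the 4 had an unadjusted p under 0.05, as did 17.7% of all probe sets. Of the root markers 2 of 9 were measured, summing to 24.0 to 50.5 in sni1 and 23.6 to 33.4 in wild type. The 2 went opposite ways, with log2 fold changes of 0.86 ± 0.44 (SE) for PYK10 and -0.68 ± 0.34 for EXPA7. Both had mean signals under the 40th percentile of all probe sets, and neither passed in either limma fit. Of the flower markers 0 of 8 were measured. An actin control read at its 3' and 5' ends, whose ratio tracks RNA integrity, gave ratios of 7.61, 4.89 and 3.29 in sni1 replicates 1 to 3 and 4.75, 2.58 and 4.22 in wild-type replicates 1 to 3. The same ratio for GAPDH was 1.51, 1.503 and 1.17 in sni1 and 1.75, 1.62 and 1.12 in wild type.

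BIP3 had the largest difference of the 4 genes. Its probe set gave signals of 59.3, 54.0 and 19.7 in sni1 replicates 1 to 3, and of 2.46, 4.16 and 3.94 in wild-type replicates 1 to 3. Every sni1 array lay above every wild-type array, and the lowest sni1 signal was 4.73 times the highest wild-type signal. The means were 44.3 ± 21.5 in sni1 and 3.52 ± 0.924 in wild type (SD, n = 3 each), a ratio of 12.6. Within its own array the BIP3 signal was above 59.4%, 56.5% and 37.6% of the probe sets in sni1 replicates 1 to 3, and above 7.49%, 10.5% and 15.7% of them in wild-type replicates 1 to 3. The wild-type signal is therefore close to the lower end that the array reports, and the size of the ratio is uncertain.

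On the log2(signal + 2.89) scale, where the added constant is the 10th percentile of all signals and shrinks the changes of dim probe sets, the BIP3 difference was 2.76 ± 0.43 (SE; 95% interval 1.76 to 3.75). It ranked 16th from the top among the fold changes of all 22746 probe sets. Without a term for the replicate number it missed the threshold of 0.05 (limma adjusted p = 0.0676, unadjusted p = 0.000216). Once the replicate number entered as a block, BIP3 rose past it (limma adjusted p = 0.00812). The background for these calls was 0.229% of all probe sets without the block (0.224% higher and 0.0044% lower in sni1) and 4.02% with it (2.73% higher and 1.28% lower). An exact permutation test of BIP3 alone gave a two-sided p = 0.1, the smallest that 3 arrays against 3 allow. The non-overlap seen for BIP3, with sni1 higher, was found in 6.40% of all probe sets.

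BIP3 was higher in sni1 in each same-numbered pair of arrays. The ratios within pairs are not given, since their wild-type signals lie at the low end. The sni1 arrays differed among themselves by 3.02-fold and the wild-type arrays by 1.69-fold. Without sni1 replicate 3 and with no block, the difference was 3.22 on the log2 scale (limma adjusted p = 0.0553). Without both arrays of replicate 3 it was 3.28 with the block (adjusted p = 0.00655).

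**Figure D1:**
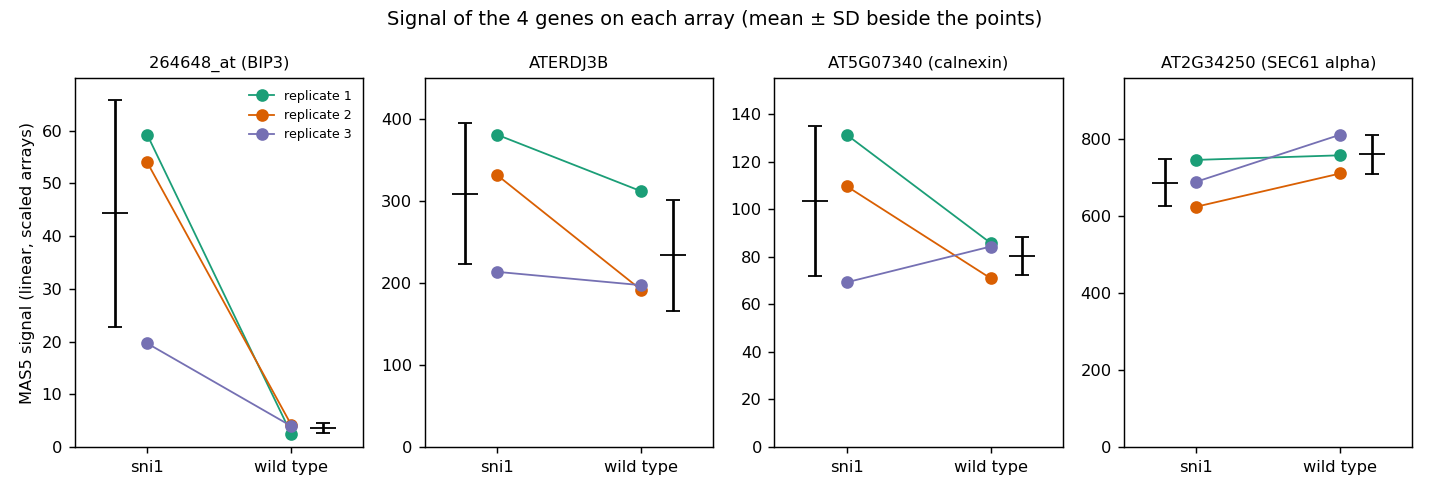
MAS5 signal (linear vertical axis from 0) of each of the 4 genes in sni1 and wild type. Points are arrays, lines join arrays with the same replicate number, and the black marks give the mean ± SD of 3 arrays. The BIP3 probe set lies between 19.7 and 59.3 in sni1 and between 2.46 and 4.16 in wild type, while the genotypes overlap for the other genes.

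ATERDJ3B encodes a J-domain protein of the ER lumen that works with BiP and is known for a part in the maturation of the immune receptor EFR. Its signals were 381, 332 and 214 in sni1 replicates 1 to 3, and 312, 192 and 198 in wild-type replicates 1 to 3. The 2 highest arrays were of sni1, but sni1 replicate 3 lay under wild-type replicate 1, so the genotypes overlapped. The means were 309 ± 86.1 in sni1 and 234.0 ± 68.0 in wild type (SD, n = 3 each). The difference of 0.39 ± 0.27 on the log2 scale had an interval of -0.23 to 1.01 and did not pass (limma adjusted p = 0.898).

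Within each same-numbered pair ATERDJ3B was higher in sni1, by 1.22-fold, 1.73-fold and 1.08-fold in replicates 1 to 3. All 3 pairs pointed upward in 19.1% of all probe sets. With the block the standard error was 0.13 and the interval 0.096 to 0.69, and the gene still missed the threshold (limma adjusted p = 0.159). ATERDJ3B was also the 1 gene of the 4 that passed a test for differences between replicate numbers (limma F-test, adjusted p = 0.0369), which 15.7% of all probe sets passed. Averaged over both genotypes, its signal was 347, 262 and 206 in replicates 1 to 3. Leaving out wild-type replicate 1 or sni1 replicate 3, with no block, raised the log2 difference to 0.62 and 0.64, and leaving out sni1 replicate 1 lowered it to 0.22, without a call in any of these fits.

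AT5G07340 encodes a calnexin, a membrane-bound lectin chaperone that retains glycoproteins in the ER until they are folded. Its signals were 131, 110 and 69.3 in sni1 replicates 1 to 3, and 85.8, 71.0 and 84.4 in wild-type replicates 1 to 3. Both the highest and the lowest array were of sni1, so the wild-type arrays fell inside the range of the mutant. The means were 103 ± 31.6 in sni1 and 80.4 ± 8.19 in wild type (SD, n = 3 each). The log2 difference was 0.31 ± 0.24, with an interval of -0.25 to 0.87 (limma adjusted p = 0.917, and 0.439 with the block).

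The calnexin pairs disagreed in direction. The ratio of sni1 to wild type was 1.53, 1.55 and 0.821 for replicates 1 to 3. Without both arrays of replicate 3, the log2 difference was 0.60 with the block (limma adjusted p = 0.105), and without sni1 replicate 1 and with no block it was 0.12.

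In 3 of the 4 genes, BIP3, ATERDJ3B and the calnexin gene, sni1 replicate 1 had the highest and sni1 replicate 3 the lowest signal of the mutant arrays. Replicate 3 was the lowest sni1 array in 44.9% of all probe sets. The actin and GAPDH 3' to 5' ratios given above had the same order over the sni1 arrays. Their part in the result was not tested.

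AT2G34250 encodes an alpha subunit of SEC61, the pore through which nascent chains enter the ER. Its signals were 746, 624 and 689 in sni1 replicates 1 to 3, and 758, 711 and 812 in wild-type replicates 1 to 3. Its spread was the narrowest of the 4 genes, as the sni1 arrays differed by 1.20-fold and the wild-type arrays by 1.14-fold. The means were 687 ± 60.9 in sni1 and 760.2 ± 50.4 in wild type (SD, n = 3 each).

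The SEC61 alpha signal was lower in sni1 in all 3 pairs, with ratios of 0.984, 0.878 and 0.849, as were 20.7% of all probe sets. The log2 difference of -0.15 ± 0.16 did not pass (limma adjusted p = 0.947, and 0.433 with the block). It was -0.082 without sni1 replicate 2 and -0.081 after quantile normalization, with no call in either. Its interval was -0.51 to 0.21, and -0.35 to 0.051 in the blocked fit. The upper bound of 0.21 lay under those of ATERDJ3B (1.01) and of the calnexin gene (0.87). The intervals of these genes overlapped, and differences between genes were not tested.

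**Figure D2:**
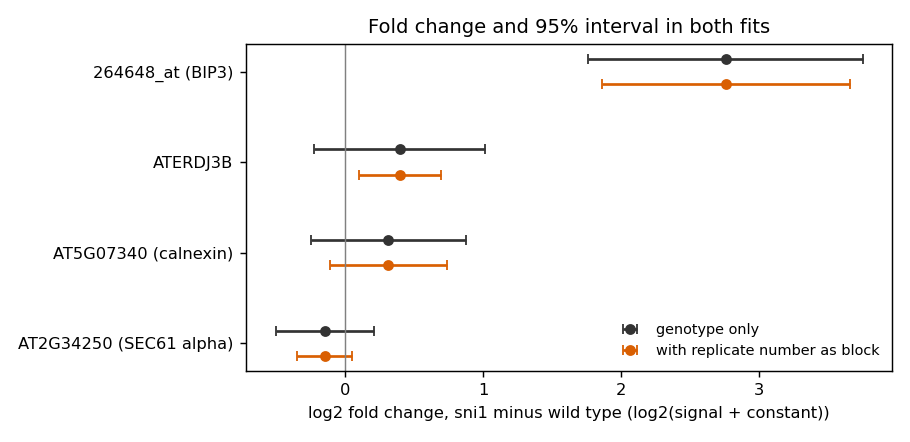
Log2 fold change (horizontal axis, sni1 minus wild type, on the log2(signal + constant) scale) of the 4 genes, with 95% intervals from limma without (black) and with (orange) the replicate number as a block. The interval of the BIP3 probe set, 1.76 to 3.75 without the block, stays above 0 in both fits, and that of ATERDJ3B, -0.23 to 1.01 without the block, lies above 0 with the block alone. The intervals are not adjusted for the number of probe sets. With the block, 17.7% of all probe sets had an unadjusted p under 0.05, and ATERDJ3B missed the adjusted threshold (limma adjusted p = 0.159).

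**Figure D3:**
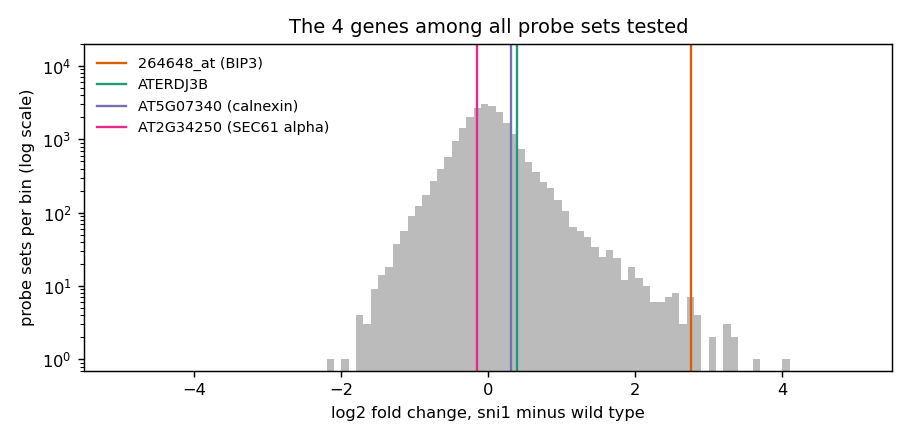
Number of probe sets (vertical axis, log scale) by log2 fold change (horizontal axis, sni1 minus wild type, bins of 0.1), with the 4 genes as vertical lines. ATERDJ3B at 0.39, the calnexin gene at 0.31 and SEC61 alpha at -0.15 lie in the bulk of the distribution, and the BIP3 probe set at 2.76 lies in its upper tail.

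To place these genes among others of the same route, 90 genes of ER folding, import, glycosylation, stress signalling and degradation were listed, of which 40 had a named probe set. The 40 include ATERDJ3B, the calnexin gene and SEC61 alpha but not BIP3. None of the 40 passed in limma without the block, against 0.229% of all probe sets, and 2 of the 40 had an unadjusted p under 0.05 (6.92% of all probe sets did). With the block 9 of the 40 had an unadjusted p under 0.05, against 17.7% of all probe sets. In that fit 2 rose, BZIP60 and AT3G60540, and 0 fell, against 2.73% and 1.28% of all probe sets. Their median log2 fold change was 0.059, with 25 positive and 15 negative values, and that of all probe sets was -0.017.

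The ER chaperone list had 5 measured genes of 15, of which ATERDJ3B and the calnexin gene are described above. Each of the 5 had a positive log2 fold change, with a median of 0.34. A positive value was found in 25 of the 40 ER list genes, these 5 included. None of the 5 passed in limma (lowest adjusted p 0.800, and 0.0933 with the block), and at an unadjusted p under 0.05 there were 0 without the block and 3 with it, a criterion that 17.7% of all probe sets met with the block. Beside ATERDJ3B and the calnexin gene they were CRT1b, a calreticulin, and ATERDJ2A and ATERDJ2B, the J-domain partners of the SEC61 channel. CRT1b signals were 571, 514 and 322 in sni1 replicates 1 to 3 and 434, 296 and 288 in wild-type replicates 1 to 3 (log2 fold change 0.45 ± 0.26 SE). Like ATERDJ3B, CRT1b passed the F-test over replicate numbers (limma adjusted p = 0.0358), as did 15.7% of all probe sets. ATERDJ2A signals were 122, 136 and 105 in sni1 and 108, 92.5 and 83.8 in wild type (0.34 ± 0.17), and ATERDJ2B stood at 0.052 ± 0.27. In all 5 genes the lowest sni1 array was replicate 3, as it was in 19 of the 40 ER list genes and in 44.9% of all probe sets. BIP1 and BIP2, the constitutive BiP genes, and the other calnexin and calreticulin genes were not analysed here.

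Among the regulators of the unfolded protein response, 5 of 12 genes were measured. BZIP60, the transcription factor made from the transcript that IRE1 splices, had signals of 337, 290 and 259 in sni1 replicates 1 to 3, and 240, 159 and 169 in wild-type replicates 1 to 3. The genotypes did not overlap, with sni1 higher, as in 3 of the 40 ER list genes and 6.40% of all probe sets. Its log2 fold change was 0.65 ± 0.20 (SE), which missed the threshold without the block (limma adjusted p = 0.449) and passed with it (adjusted p = 0.0119). When a replicate number was dropped from both genotypes, BZIP60 passed with the block in 1 of 3 fits (adjusted p from 0.0166 to 0.0583). The signal does not tell spliced from unspliced BZIP60 transcripts. BZIP28 (0.30 ± 0.25) and BZIP17 (0.21 ± 0.20), membrane-held transcription factors that are released by proteolysis, passed in neither fit. Of their processing proteases, S1P stood at 0.0024 ± 0.20. The site-2 protease gene AT4G20310 stood at -0.38 ± 0.23, with every sni1 array (44.9 to 76.2) under every wild-type array (77.3 to 87.1), and passed in neither fit (limma adjusted p = 0.864, and 0.262 with the block). Such a separation, with sni1 lower, was found in 3 of the 40 ER list genes and in 6.07% of all probe sets.

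The genes of targeting, translocation and signal-peptide removal were the best covered, with 21 of 29 measured and a median log2 fold change of 0.0033. Of the other SEC61 subunits, the alpha genes stood at 0.085 ± 0.17 (AT1G29310) and -0.41 ± 0.25 (AT1G78720), neither of them called. The beta-subunit gene AT3G60540 had signals of 141, 113 and 66.5 in sni1 replicates 1 to 3, and 60.6, 79.2 and 43.2 in wild-type replicates 1 to 3. It was higher in sni1 within each pair, although sni1 replicate 3 lay under wild-type replicate 2. Its log2 fold change of 0.76 ± 0.32 passed with the block (limma adjusted p = 0.0423) and not without it (0.694). With both arrays of a replicate number left out it passed in 0 of 3 blocked limma fits (adjusted p from 0.0712 to 0.184). The gamma-subunit gene AT3G48570 stood at -0.25 ± 0.14, with 166 to 208 in sni1 and 216 to 232 in wild type, and was not called in either fit (limma adjusted p = 0.858, and 0.284 with the block). For AT3G48570 and AT1G78720 every sni1 array lay under every wild-type array, as in 6.07% of all probe sets.

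Genes acting before and after the channel held no call in either fit. The 6 measured genes of the signal recognition particle, which brings ribosomes to the ER, ranged from -0.035 to 0.38 on the log2 scale, and the 3 of its receptor from -0.21 to 0.29. The 6 genes of the signal peptidase complex, which removes the signal peptide, ranged from -0.049 to 0.31. The highest of these was AT3G15710, a catalytic subunit, with 297, 302 and 362 in sni1 replicates 1 to 3 and 242, 238 and 294 in wild-type replicates 1 to 3 (limma adjusted p = 0.805, and 0.0871 with the block). Its genotypes did not overlap, as in 6.40% of all probe sets with sni1 higher. The SEC62 gene AT3G20920 stood at -0.017 ± 0.16.

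The remaining ER lists held few measured genes and no call in either fit. The disulfide isomerase gene PDIL5-1 stood at 0.0095 ± 0.17. The oligosaccharyltransferase genes, whose product attaches sugar chains, stood at 0.044 (AT1G76400), -0.0087 (AT2G01720) and -0.46 (AT1G11560, a dim probe set with 10.1 to 16.3 in sni1 and 15.7 to 20.7 in wild type). Of the 5 measured genes of ER-associated degradation, DER1 was highest at 0.28 ± 0.14. Its signals were 138 to 152 in sni1 and 112 to 123.5 in wild type. Such a separation, with sni1 higher, was found in 6.40% of all probe sets. OS9, DER2.2, UBC32 and DER2.1 lay between -0.063 and 0.21.

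**Figure D4:**
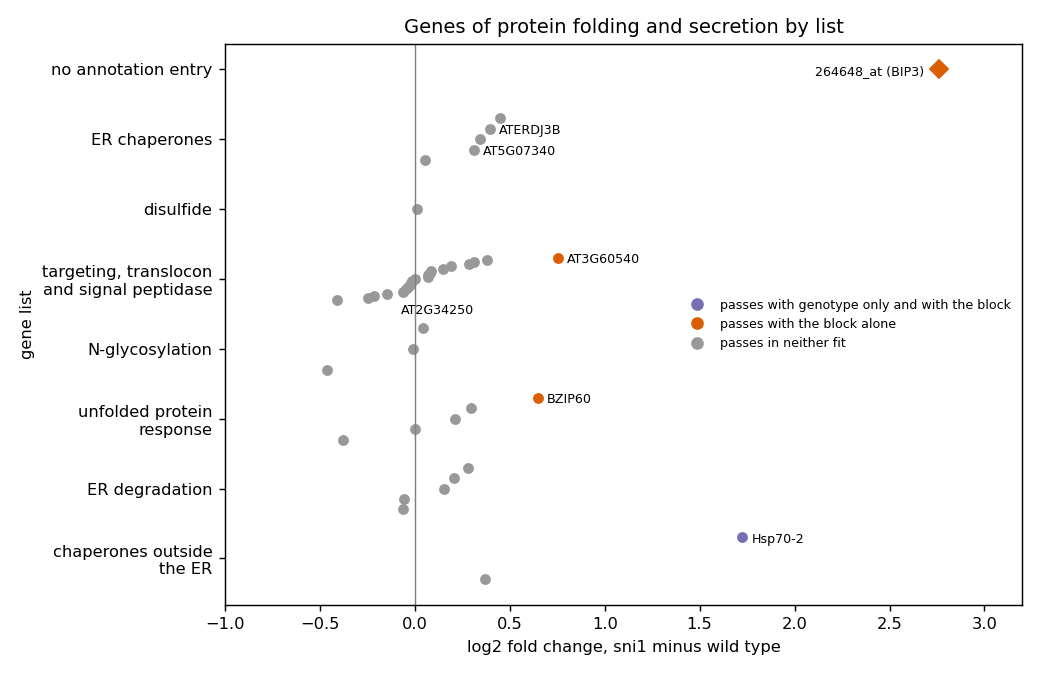
Log2 fold change (horizontal axis, sni1 minus wild type) of each measured gene of protein folding and secretion, 1 point per gene, grouped by list on the vertical axis and coloured by the limma fit in which it passed. BZIP60 at 0.65, AT3G60540 at 0.76 and the BIP3 probe set at 2.76 passed with the block alone, Hsp70-2 at 1.72 passed in both fits, and the other genes passed in neither.

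Since BiP belongs to the Hsp70 family, 16 chaperone genes of the cytosol, mitochondria and chloroplasts were listed as well, of which 2 were measured. The cytosolic Hsp70-2 (AT5G02490) had signals of 191, 192 and 169 in sni1 replicates 1 to 3, and 63.0, 66.1 and 36.7 in wild-type replicates 1 to 3. It rose by 1.72 ± 0.23 on the log2 scale (SE; limma adjusted p = 0.0396, and 0.000786 with the block). Its genotypes did not overlap, as in 6.40% of all probe sets with sni1 higher. With 1 array left out and no block the Hsp70-2 call held only without wild-type replicate 3 (limma adjusted p from 0.0310 to 0.271 over the 6 fits), and with the block it held without each replicate number (up to 0.00383). The other cytosolic Hsp70 gene, AT3G09440, differed between replicate numbers. Its signals were 1276, 655 and 435 in sni1 and 1113, 467 and 322 in wild type, and its log2 fold change of 0.37 ± 0.51 did not pass (limma adjusted p = 0.963, and 0.0675 with the block), while the F-test over replicate numbers did (limma adjusted p = 0.000491).

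For each of the 4 genes, the named genes of most similar pattern were taken by Pearson correlation of the log2 values over the 6 arrays, among 7354 named probe sets or fewer with a mean signal of at least 24.5. All genes were read on the same 6 arrays, with the same genotypes and replicate numbers, so these correlations describe the arrays and were not tested. The patterns nearest to that of BIP3 were those of AT4G19880 (r = 0.993), AT1G08050 (0.993) and AT5G38210 (0.993). AT4G19880 had signals of 311, 295 and 227 in sni1 replicates 1 to 3 and 153, 155 and 172 in wild-type replicates 1 to 3, again with sni1 replicate 3 as the lowest mutant array. AT1G08050 had 46.1, 46.2 and 26.5 in sni1 and 14.3, 16.8 and 14.03 in wild type, and AT5G38210 had 63.5, 62.5 and 43.6 in sni1 and 23.7, 27.2 and 30.5 in wild type. Since these genes were picked for their likeness to a pattern that separates the genotypes, their limma results are not given.

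The patterns nearest to that of ATERDJ3B were those of PMM, a phosphomannomutase that supplies mannose for protein glycosylation and ascorbate (r = 0.991), of the calreticulin gene CRT1b (0.991) and of AT5G49760 (0.985). PMM signals ran from 429 to 531 in sni1 and from 407 to 480 in wild type. For the calnexin gene they were AT4G26910 (r = 0.981), AT2G19130 (0.977) and AT1G80000 (0.965), and for SEC61 alpha AT5G24340 (0.996), AT3G56060 (0.992) and AT1G48200 (0.991).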

How the data were processed

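Total RNA of whole plants was labelled with biotin and hybridised to ATH1 arrays. What the submitters deposited is 1 linear signal intensity per probe set and array. Their processing notes name MAS5, with no version or settings. The mean of each array was 100.01 once 2% of the values were trimmed from either end, so the arrays share a scale. After 64 control probe sets were set aside, 22746 were tested. The platform annotation gave 13513 of them 1 gene and 503 several, and 8730 had no entry; 13436 matched a locus of TAIR10.1. Where a locus had several probe sets, the one of highest mean was used, and names came from single-gene probe sets, except for BIP3.

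Intensities were transformed as log2(value + 2.89) and compared with limma 3.58.1 (lmFit, eBayes with intensity trend, two-sided, Benjamini-Hochberg over all probe sets, threshold 0.05) in R 4.3.3; differences are sni1 minus wild type, and no filter was applied. Figures used matplotlib 3.10.9. The procedure was tested on simulated data with independent arrays, which lack the likeness between same-numbered arrays given below. Array number limits the precision. The titles number the arrays 1 to 3 in each genotype, and deviations from the genotype means correlated at 0.66, 0.58 and 0.71 between same-numbered arrays over 13648 probe sets, so the numbers were taken to pair the arrays. This pairing comes from the data. The blocked fit is given for the 4 genes and wherever it changes the call of a list gene. Named genes are the 4 genes, every measured gene of the ER and other chaperone lists, and the 3 genes nearest in pattern to each of the 4. The genes and lists were chosen with earlier results of these data known. No sequences were used here.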

Additional observations from a re-analysis of the deposited data

How the results depend on the processing

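The direction of each of the 4 genes was the same in every alternative in which it was tested (21 for BIP3, which lay under the 40th percentile filter, and 23 for each of the others). ATERDJ3B, the calnexin gene and SEC61 alpha passed in none of them (limma adjusted p from 0.0895 to 0.998, from 0.105 to 0.998 and from 0.359 to 0.999). Without the block, the BIP3 log2 fold change passed after median centring (2.74, limma adjusted p = 0.0488), cyclic loess (2.80) and array weights (2.96). Still without the block, it did not pass after quantile normalization (limma adjusted p = 0.0553), with the 25th percentile as constant (0.102) or without the variance trend (0.0988). It passed with the replicate block alone (2.76). It also passed with the block combined with quantile normalization (2.70), the 25th percentile as constant (1.76) or cyclic loess (2.80). With 1 array left out and no block it ran from 2.49 to 3.22 and passed in none of these fits (adjusted p from 0.0553 to 0.366), and with both arrays of a replicate number left out and the block it was 2.37, 2.63 and 3.28 and passed in all 3. With no constant it was 3.54 and did not pass (adjusted p = 0.117, and 0.0593 with the block), so its size and its call depended on how dim signals were treated.

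Of all probe sets 52 passed (51 higher, 1 lower), against 15 with no constant, 83 after cyclic loess, 8 without the variance trend, 102 with array weights and 914 with the replicate block (622 higher, 292 lower). The blocked count was 1068 after quantile normalization, 1073 after cyclic loess, 835 with the larger constant, 291 with no constant and 1373 with the filter. Without the block and with 1 array left out, 2 to 44 passed. With the block and a replicate number left out, 590, 490 and 406 passed. Of the ER list genes 0 passed, against 2 with the block, with the block and quantile normalization or with the block and cyclic loess, 1 with the block and the larger constant, 3 with the block and the filter (CRT1b beside BZIP60 and AT3G60540), and 0 to 1 with a replicate number left out. With the block and no constant, 0 passed. Probe sets that differed between replicate numbers were 1923 with no constant, against 3581. Combining the block with the filter, with other constants or with cyclic loess was chosen after seeing the data, as were all alternatives for single genes of the lists. The cause of these changes was not tested.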
